A study of Mus musculus with 13 samples.

Results

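The liver makes most of the plasma proteins that mark and lyse microbes (complement) and that form, limit and dissolve clots (coagulation, its inhibitors and fibrinolysis). Here 35 mouse genes for such proteins, 16 of complement and 19 of coagulation, were followed in total liver RNA from naive mice and after 1, 4 and 6 weeks of TAA. Their probes were found by gene symbol in the annotation of the array, which covers 16593 genes. Of the 35, 34 had a probe and 33 were tested, 15 of complement and 18 of coagulation. C3 was not found among the symbols of the annotation used. The only probe of Fgb, the beta chain of fibrinogen, was detected on no array, so neither gene has a level here. All 33 tested probes were detected on all 13 arrays, so none of them passed the filter on dim probes through 1 group alone.

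The study's title places it in liver fibrosis after toxic injury, and its samples were female C57BL/6 mice, with RNA taken from whole liver. The groups were 3 untreated (naive) samples and 3, 4 and 3 samples taken 1, 4 and 6 weeks into TAA. TAA is the usual short form of thioacetamide, a compound that liver enzymes turn into a toxin of hepatocytes. The labels name no dose, route, schedule or age, and nothing in them tells whether samples came from separate animals, so p-values measure only the spread between these samples, which may be technical.

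Complement is started by antibody (the classical pathway), by sugars on microbes (the lectin pathway) or by slow self-activation (the alternative pathway), and all routes meet at C3 and end in a pore, the membrane attack complex. Clotting runs from the contact system or tissue factor through a chain of proteases to thrombin, which cuts fibrinogen into fibrin. Several of these proteases, and some of their inhibitors, need vitamin K for a modification made in the hepatocyte. Hepatocytes are the main source of nearly all of these proteins, and in acute inflammation they raise fibrinogen and several complement proteins as part of the acute phase response.

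Values are probe intensities after background correction and quantile normalization, on a log2 scale, and a gene was called when its limma p-value, adjusted over 8027 genes, was under 0.05. Mean raw intensity lay at 472 to 587 on naive arrays and 456 to 611 on 4-week arrays, and at 177 to 479 and 195 to 273 on those of 1 and 6 weeks. The upper decile of 1-week array C, the dimmest, was 2.13 times its background. The arrays also fell into 2 sets that the groups do not explain, since 7 genes read 1.12 to 2.78 log2 units higher on 1-week arrays B and C and on all 6-week arrays than on all others. Results with this array set as a term in the model are called set-adjusted below. The 1-week set-adjusted values rest on array A alone against naive. All naive and all 4-week arrays lie in the same set, so the set term cannot move the 4-week changes from naive. Only their errors can move, so a 4-week call kept when set-adjusted is no check against the array set. No set holds both naive and 6-week arrays, so at 6 weeks set and group cannot be told apart, and the set-adjusted value there leans on the 1-week arrays.

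Promoter sequence was available from RefSeq (build GRCm38.p6) for 27 of the 35 members, as a short window around a start site in the RefSeq table, to which all distances here refer. For Fga and Klkb1 this site is the outer end of the gene in the RefSeq gene record, while for C4bp it lies 39 and for F7 528 bases inside it, so that the F7 window is wholly inside the recorded gene. The 4 windows below are shown because they belong to F7 and Klkb1, which fell far, to Fga, which fell at 1 week, and to C4bp, which was not called at any time. Capitals mark matches, on either strand, to motifs of factors known to act on liver genes: the HNF1 core GTTAAT, C/EBP TTGCNNAA and STAT TTCCNGGAA. The windows are chr8:13025784-13026083, plus strand, chr8:45294786-45295085, minus strand, chr3:83025903-83026202, plus strand and chr1:130661569-130661868, minus strand, in the order printed.
F7: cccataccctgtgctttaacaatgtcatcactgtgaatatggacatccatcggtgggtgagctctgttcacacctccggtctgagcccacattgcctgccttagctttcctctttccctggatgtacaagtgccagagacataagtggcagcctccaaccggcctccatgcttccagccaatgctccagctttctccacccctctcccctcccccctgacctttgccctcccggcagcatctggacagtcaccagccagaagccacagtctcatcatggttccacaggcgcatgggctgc
Klkb1: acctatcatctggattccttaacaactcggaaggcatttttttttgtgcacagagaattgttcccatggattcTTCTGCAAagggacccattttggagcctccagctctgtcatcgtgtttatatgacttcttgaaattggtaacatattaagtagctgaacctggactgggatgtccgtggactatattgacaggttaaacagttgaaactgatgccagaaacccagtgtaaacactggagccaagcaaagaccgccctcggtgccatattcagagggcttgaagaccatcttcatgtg
Fga: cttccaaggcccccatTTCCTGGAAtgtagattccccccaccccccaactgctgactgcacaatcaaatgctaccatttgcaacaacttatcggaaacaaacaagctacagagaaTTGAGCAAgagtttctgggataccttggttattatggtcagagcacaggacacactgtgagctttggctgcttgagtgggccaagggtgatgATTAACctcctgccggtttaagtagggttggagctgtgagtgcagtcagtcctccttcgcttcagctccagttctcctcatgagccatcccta
C4bp: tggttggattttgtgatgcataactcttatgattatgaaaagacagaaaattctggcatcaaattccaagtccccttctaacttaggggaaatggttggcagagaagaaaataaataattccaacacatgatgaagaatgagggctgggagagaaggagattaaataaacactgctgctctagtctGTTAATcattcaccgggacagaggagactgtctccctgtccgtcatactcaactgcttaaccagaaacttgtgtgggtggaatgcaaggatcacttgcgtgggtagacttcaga
The F7 window holds no match to these motifs. Klkb1 has a C/EBP match 177 bases before the start. Fga has an HNF1 match at 43, a C/EBP match at 135 and a STAT match at 234 bases before the start. C4bp has an HNF1 match at 64 bases. These are descriptions of letters, not of bound sites. Of the 27 members, which have 28 windows because C8g has 2, 8 held the HNF1 core (29.6%, against 8.24% of 27025 genes with a window): C4bp, C8a, C8b, F13b, F2, Fga, Fgb and Hc. The start sites used for Hc and F13b lie 7094 and 160 bases inside the gene record, and their matches are inside it too. The F2 match begins 8 bases after its start site. C/EBP also matched in 8 (29.6%, against 12.2%): C3, C9, F11, F9, Fga, Fgb, Klkb1 and Serpinc1. The start sites used for F9 and F11 lie 135 and 24 bases inside the gene record. Their matches, 24 and 17 bases before those sites, are inside it too, and the Serpinc1 match begins 4 bases after its start site. The STAT motif matched in Fga and Pros1 (7.41%, against 1.35%). The HNF4 motif CAAAGTCCA, found in 0.555% of genes, was in none of the 27. No 2 matches overlap in the windows printed.

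Transcripts of complement and coagulation proteins were mostly lower under TAA, and no member was called higher at any time. At 1 week 20 of the 33 tested members fell, 7 of complement and 13 of coagulation. The count that fell was 23 (10 and 13) at 4 weeks, then 22 (9 and 13) by 6 weeks. Of all 8027 genes, 25.6%, 28.2% and 38.8% were called at 1, 4 and 6 weeks, and 12.3%, 12.9% and 16.4% were called lower. The median log2 change of the members was -0.80, -0.90 and -0.90, beside 0.02, 0.03 and 0.09 over all genes. The 3 comparisons share the naive arrays. Every array of the later group lay below every naive array in 20, 27 and 28 members, which holds for 17.3%, 20.7% and 22.3% of all genes. In RNA of whole liver, fewer hepatocytes and less RNA per hepatocyte cannot be told apart.

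These counts depended on arrays and scaling, though the set term cannot move the 4-week changes. Set-adjusted, 10 members fell at 1 week (C4b, C8g, F5, F7, F12, Fga, Klkb1, Masp2, Plg and Proc), 22 at 4 weeks (all but C8a) and 9 at 6 weeks (C8g, F7, F9, F12, Klkb1, Masp1, Masp2, Proc and Serpind1), beside 6.24%, 13.8% and 5.18% of all genes called lower in that fit. The 1-week count was 11 without 1-week array C, the dimmest, and 12 without naive array B or naive array C. Shares of all genes called in those fits are not given here, so these counts do not separate the members from the whole fit. Shifting arrays to a common median, in place of quantile normalization, left 7 members called lower at 4 weeks: C4b, C8b, C8g, F7, Klkb1, Masp1 and Proc, beside 2.25% of all genes. At 1 and 6 weeks it gave 22 and 30 members called lower, beside 8.82% and 27% of all genes. That scaling also moved the median of all genes to -0.43, 0.24 and -0.65 at 1, 4 and 6 weeks, and the members' median then lay 1.28, 1.21 and 1.68 log2 units below it.

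**Figure D1:**
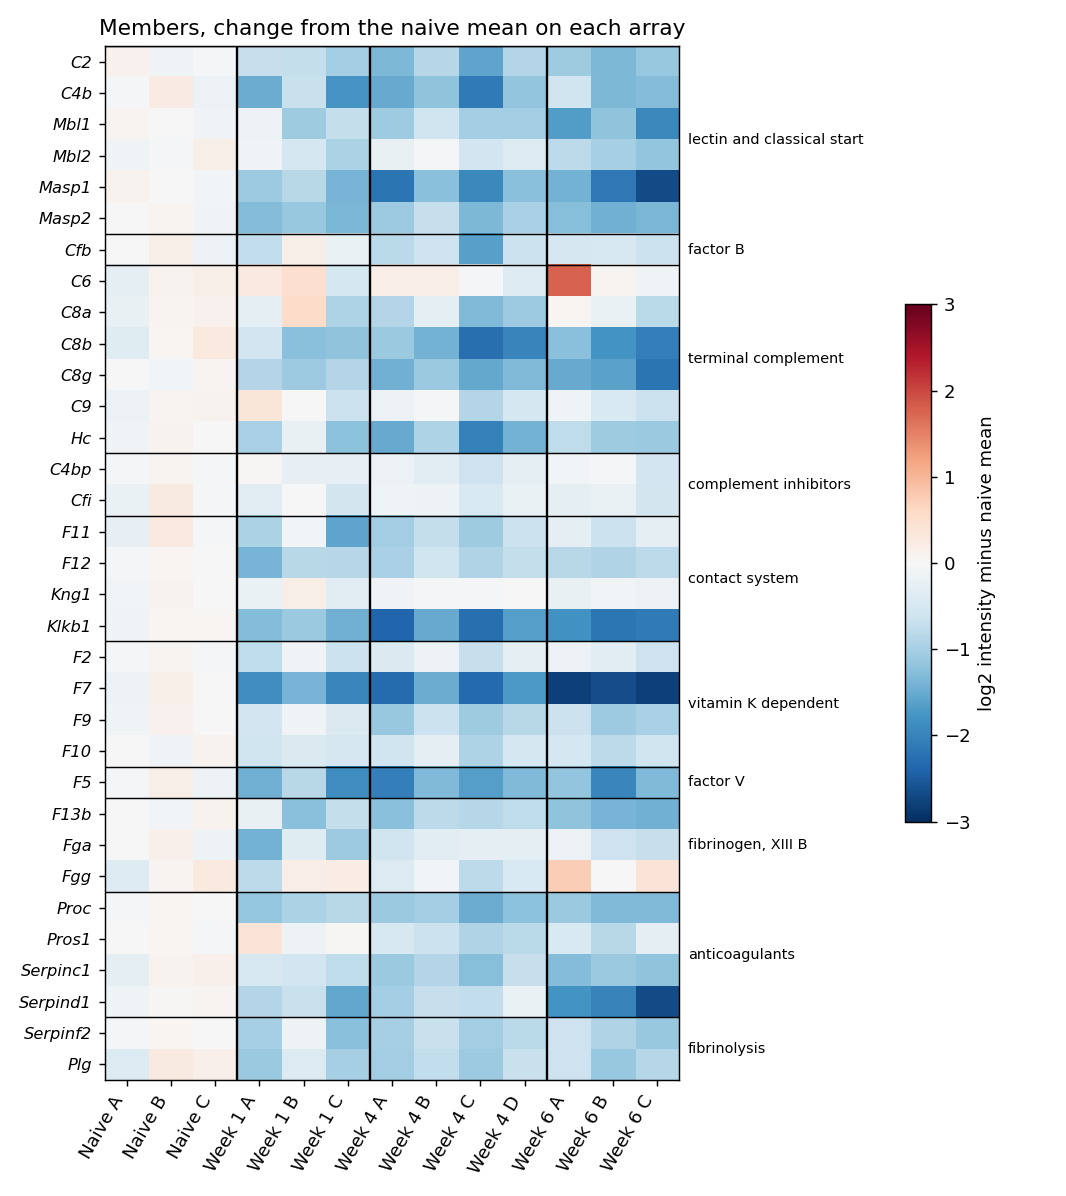
Each row is 1 tested member and each column 1 array, grouped by role; colour gives the log2 intensity minus the naive mean of that gene, from -3 (blue) to 3 (red). Most rows are blue on the 10 TAA arrays, while C6, C9, Fgg, Kng1, C4bp and Cfi stay pale or turn red on some.

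Among the 6 genes that start the lectin and classical pathways, 4 fell at 1 week, 5 at 4 weeks and 6 at 6 weeks, and their median changes were -0.95, -1.10 and -1.28. Masp1, a protease carried by mannose-binding lectin, read 10.27, 10.13 and 10.06 on the naive arrays, 9.07, 9.33 and 8.77 at 1 week, 7.97, 8.9, 8.22 and 8.9 at 4 weeks and 8.73, 8.02 and 7.46 at 6 weeks. All its TAA arrays lay below all naive ones, and 6-week array C was the lowest. It changed by -1.09 (SE 0.31, adjusted p = 0.0176), -1.65 (SE 0.29, adjusted p = 0.000742) and -2.08 (SE 0.31, adjusted p = 0.000143), which is 4.23-fold lower at 6 weeks. Its 1-week call was lost without naive array A or 1-week array C (changes of -1.03 to -0.95, adjusted p up to 0.0558) and when set-adjusted (adjusted p = 0.122).

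Masp2, the protease that cuts C4 and C2, read 11.66, 11.73 and 11.52 on the naive arrays, 10.34, 10.51 and 10.27 at 1 week, 10.54, 10.94, 10.3 and 10.66 at 4 weeks and 10.37, 10.2 and 10.26 at 6 weeks. No TAA group overlapped with naive, and the spread within each TAA group was small, with SDs from 0.09 to 0.26. Its changes were -1.27, -1.03 and -1.36 (SE 0.16 to 0.18), with adjusted p = 0.000269, 0.000416 and 5.75e-05, and it was also called when set-adjusted.

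C4b, which encodes the C4 that both pathways cleave, read 12.61, 12.93 and 12.49 on the naive arrays, 11.18, 12.02 and 10.91 at 1 week, 11.16, 11.48, 10.55 and 11.49 at 4 weeks and 12.07, 11.32 and 11.38 at 6 weeks. It changed by -1.31, -1.51 and -1.09 (SE 0.29 to 0.31, adjusted p = 0.00737, 0.00149 and 0.0125). The call at 6 weeks was lost without naive array B or 6-week array B (adjusted p of 0.0503 to 0.0525) and when set-adjusted (-1.37, adjusted p = 0.127). C4a is a near-identical neighbour, so the probe may read both genes. C2, the protease part of the convertase that C4 forms, changed by -0.81, -1.17 and -1.19 (SE 0.19 to 0.21, adjusted p = 0.0111, 0.000542 and 0.000501). Its 1-week and 6-week calls were lost when set-adjusted, with changes of -0.69 and -1.01.

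The mannose-binding lectins, which recognise microbial sugars, were first called at 4 weeks (Mbl1) and 6 weeks (Mbl2). Mbl1 read 11.5, 11.45 and 11.33 on the naive arrays, 11.24, 10.35 and 10.71 at 1 week, 10.36, 10.84, 10.4 and 10.38 at 4 weeks and 9.74, 10.21 and 9.5 at 6 weeks. All 6-week arrays lay below all others. Its changes were -0.67 (adjusted p = 0.053), -0.93 (adjusted p = 0.00628) and -1.61 (SE 0.24, adjusted p = 0.000146). Mbl2 read 12.08, 12.14 and 12.37 on the naive arrays, 12.1, 11.68 and 11.24 at 1 week, 11.97, 12.17, 11.63 and 11.79 at 4 weeks and 11.41, 11.19 and 11.02 at 6 weeks. Its arrays overlapped with naive at 1 and 4 weeks, where it was not called, and it fell by 0.99 at 6 weeks (SE 0.22, adjusted p = 0.00278). When set-adjusted, neither lectin was called at 6 weeks (-0.90 and -0.35, adjusted p = 0.125 and 0.54).

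Cfb, the protease of the alternative pathway convertase, read 10.6, 10.79 and 10.42 on the naive arrays, 9.87, 10.77 and 10.41 at 1 week, 9.79, 9.98, 8.98 and 9.97 at 4 weeks and 10.1, 10.13 and 9.95 at 6 weeks. Only at 4 weeks was it called (-0.92, SE 0.25, adjusted p = 0.013), and not without naive array B (-0.83, adjusted p = 0.0597). At 6 weeks all its arrays lay below naive, with a change of -0.54 and an adjusted p of 0.121.

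The 6 genes of the membrane attack complex were not alike. C8b, C8g and Hc fell at every time, C8a fell at 4 weeks, and C6 and C9 were not called. C8g, the gamma chain of C8, read 13.33, 13.24 and 13.42 on the naive arrays, 12.44, 12.23 and 12.44 at 1 week, 11.89, 12.21, 11.79 and 12 at 4 weeks and 11.81, 11.73 and 11.13 at 6 weeks. All its TAA arrays lay below naive, with the lowest at 6 weeks and SDs from 0.09 to 0.37. Its changes were -0.96, -1.36 and -1.77 (SE 0.18 to 0.19, adjusted p = 0.00293, 0.000106 and 1.83e-05), the last a 3.41-fold lower level, and all were called when set-adjusted.

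C8b, the beta chain of C8, read 10.42, 10.85 and 11.08 on the naive arrays, 10.22, 9.53 and 9.58 at 1 week, 9.68, 9.37, 8.53 and 8.8 at 4 weeks and 9.52, 8.99 and 8.73 at 6 weeks. Every TAA array lay below every naive array. It changed by -1.0, -1.69 and -1.70 (SE 0.29 to 0.31, adjusted p = 0.0269, 0.000657 and 0.000656). The 1-week call was lost without any 1 of naive arrays B and C and 1-week arrays B and C (changes of -0.97 to -0.85), and set-adjusted values were -0.56 at 1 week and -1.04 at 6 weeks, neither called. Hc, the mouse gene for C5, whose cleavage starts the pore, changed by -0.81, -1.47 and -0.99 (SE 0.26 to 0.27, adjusted p = 0.0421, 0.000749 and 0.0107). The 1-week call of Hc was lost in 8 of 13 fits that left out 1 array, namely naive A, B or C, 1-week A or C, 4-week A or D and 6-week B, with changes from -0.86 to -0.60. Set-adjusted it was called at 4 weeks alone.

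C8a, the alpha chain, changed by -0.21, -0.90 and -0.31. Its 4-week call (adjusted p = 0.0474) was lost when set-adjusted (adjusted p = 0.0553) and without any 1 of naive A, B or C, 1-week A, 4-week A, C or D and 6-week B, with changes from -1.01 to -0.76. C6 read 7.63, 8.01 and 8.08 on the naive arrays, 8.19, 8.42 and 7.39 at 1 week, 8.1, 8.1, 7.86 and 7.53 at 4 weeks and 9.67, 7.98 and 7.81 at 6 weeks. A single array, 6-week A, stood above the rest, and its changes of 0.09, -0.01 and 0.58 were within the spread (adjusted p = 0.894, 0.983 and 0.265). Without 6-week array A the last was -0.01. C9, which polymerises to form the pore wall, changed by -0.09, -0.41 and -0.41 (SE 0.25 to 0.27), none of them called.

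Both soluble inhibitors of complement among the members changed less than the errors allow to call. C4bp, which helps factor I to cut C4b, read 11.44, 11.56 and 11.4 on the naive arrays, 11.5, 11.23 and 11.21 at 1 week, 11.29, 11.13, 10.84 and 11.2 at 4 weeks and 11.39, 11.4 and 10.9 at 6 weeks. Its 4-week and 6-week arrays lay below naive by a small margin, with changes of -0.16, -0.35 and -0.24 (SE 0.17 to 0.18, adjusted p = 0.581, 0.144 and 0.332). Cfi, factor I itself, a protease that inactivates C3b and C4b, read 12.91, 13.37 and 13.05 on the naive arrays, 12.78, 13.12 and 12.57 at 1 week, 12.99, 12.95, 12.65 and 12.9 at 4 weeks and 12.85, 12.91 and 12.57 at 6 weeks. Its changes were -0.29, -0.24 and -0.33 (SE 0.18 to 0.19, adjusted p = 0.287, 0.344 and 0.181). A p-value above the threshold does not show that either gene stayed level.

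**Figure D2:**
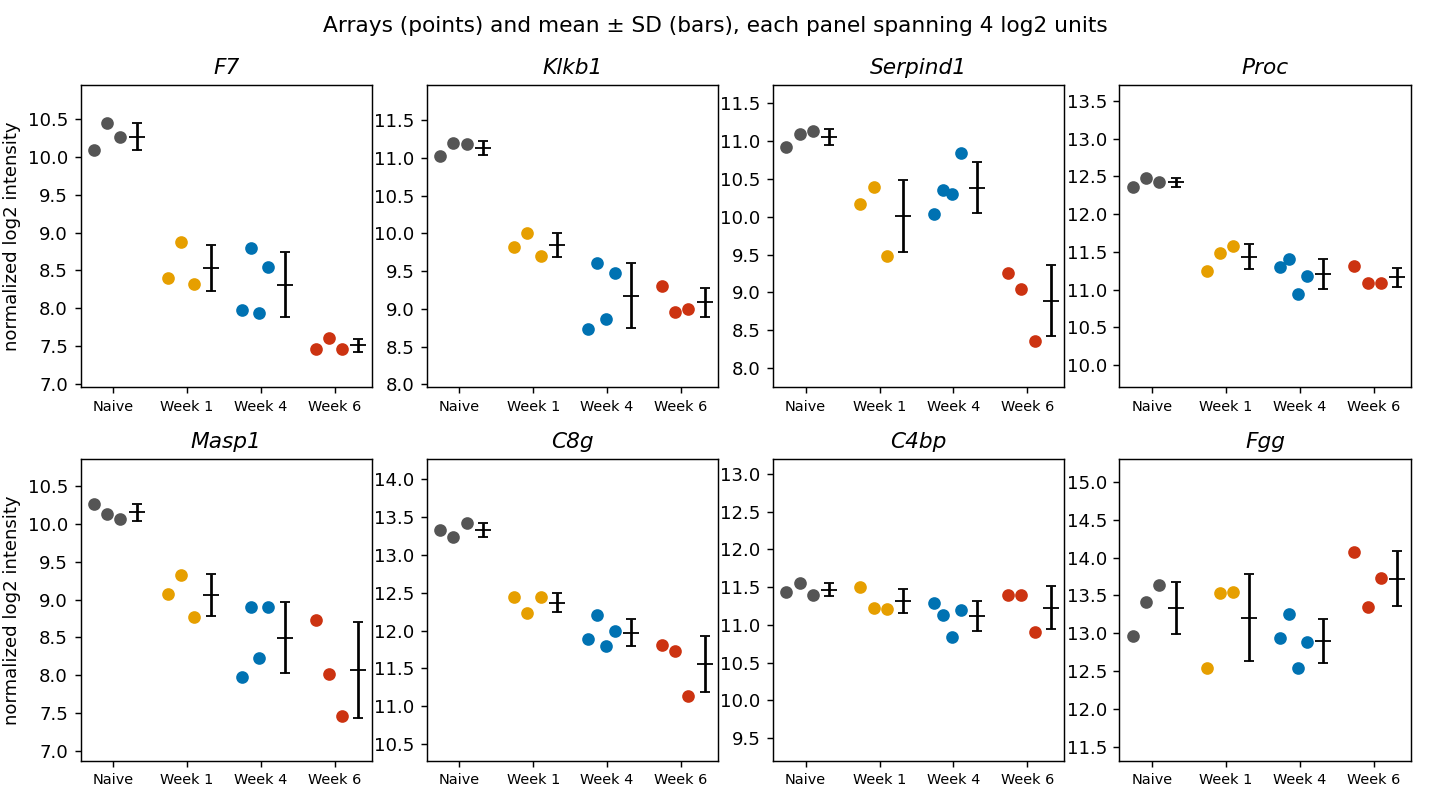
Normalized log2 intensity of 8 members by group, with 1 point per array and a bar for mean ± SD; every panel spans 4 log2 units, so slopes can be compared but levels of different genes cannot. F7, Klkb1, Serpind1, Proc, Masp1 and C8g lie below naive on all TAA arrays, while C4bp and Fgg overlap with naive on some.

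In the contact system, which starts clotting on charged surfaces, 3 of 4 genes fell at 1 and 4 weeks and 2 of 4 at 6 weeks. Klkb1, plasma prekallikrein, read 11.02, 11.19 and 11.18 on the naive arrays, 9.82, 10.01 and 9.7 at 1 week, 8.74, 9.61, 8.87 and 9.47 at 4 weeks and 9.31, 8.96 and 9 at 6 weeks. No TAA array came near the naive ones. Its changes were -1.28 (SE 0.22, adjusted p = 0.00113), -1.96 (SE 0.21, adjusted p = 1.96e-05) and -2.04 (SE 0.22, adjusted p = 1.88e-05), 3.88-fold and 4.11-fold lower at 4 and 6 weeks, and they were called when set-adjusted. Kng1, kininogen, the substrate of kallikrein, read 14.86, 15.05 and 14.92 on the naive arrays, 14.74, 15.13 and 14.63 at 1 week, 14.84, 14.9, 14.9 and 14.92 at 4 weeks and 14.71, 14.86 and 14.76 at 6 weeks. Its groups overlapped and it was not called (changes of -0.11, -0.06 and -0.17, SE 0.15 to 0.16). The Kng1 probe read up to 41720 in raw intensity, where the brightest probe on any array read 47395, and saturation of this probe was not tested. A dimmer Kng1 probe, up to 19300 and detected on all 13 arrays, changed by -0.12, -0.01 and 0.31. Another, detected on 11 arrays and up to 215.5, changed by -0.90, -0.59 and -0.96.

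F12, the protease that activates prekallikrein, changed by -1.03, -0.80 and -0.84 (SE 0.17 to 0.18, adjusted p = 0.00104, 0.00268 and 0.0021). Set-adjusted its 6-week change was -1.40 (adjusted p = 0.00815). F11, which factor XII activates in turn, read 10.35, 10.89 and 10.54 on the naive arrays, 9.64, 10.52 and 9.01 at 1 week, 9.55, 9.87, 9.53 and 9.95 at 4 weeks and 10.32, 9.96 and 10.29 at 6 weeks. Its 1-week arrays spread over more than the distance between groups and array B overlapped with naive. F11 fell by 0.87 at both 1 and 4 weeks (adjusted p = 0.0421 and 0.0292) and was not called at 6 weeks (-0.41). Leaving out 1 array lost the 1-week call in 10 of 13 fits (all but those without 1-week B, 6-week A and 6-week B), with changes from -1.0 to -0.52, and the 4-week call without naive B or C or 4-week A or C (-0.90 to -0.72).

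Of the vitamin K dependent procoagulant proteases, 2 of 4 fell at 1 week and 3 of 4 at 4 and 6 weeks, by very different amounts. F7, the partner of tissue factor in the extrinsic pathway, read 10.1, 10.45 and 10.26 on the naive arrays, 8.4, 8.88 and 8.32 at 1 week, 7.97, 8.79, 7.93 and 8.55 at 4 weeks and 7.46, 7.6 and 7.46 at 6 weeks. Each TAA array lay below each naive array, and the 6-week arrays lay below all others with an SD of 0.08. F7 changed by -1.74 (SE 0.23, adjusted p = 0.000216), -1.96 (SE 0.22, adjusted p = 2.97e-05) and -2.76 (SE 0.23, adjusted p = 2.56e-06), and at 6 weeks it was 6.77-fold lower, the largest fall among the tested probes of members. Set-adjusted values were -1.87, -1.96 and -2.96, all called. F2, prothrombin, read 12.77, 12.92 and 12.8 on the naive arrays, 12.07, 12.72 and 12.19 at 1 week, 12.4, 12.65, 12.15 and 12.54 at 4 weeks and 12.66, 12.5 and 12.21 at 6 weeks. Its TAA arrays lay below the naive ones, yet its changes of -0.50, -0.40 and -0.37 (SE 0.19 to 0.20) were not called (adjusted p = 0.0793, 0.132 and 0.16).

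F9, which with factor VIII activates factor X, changed by -0.38 (not called), -0.92 and -0.90 (SE 0.18 to 0.19, adjusted p = 0.00177 and 0.00229 for the last 2). F10, which makes thrombin, changed by -0.51, -0.58 and -0.65 (SE 0.16 to 0.17, adjusted p = 0.0433, 0.0154 and 0.00923). The 1-week call of F10 was lost in 8 of 13 fits that left out 1 array (naive A, B or C, 1-week A or C, 4-week A or D and 6-week C, -0.56 to -0.46), and its 4-week call without naive C or 4-week C (-0.53 to -0.47). Set-adjusted, F10 was called at 4 weeks alone. F5, the cofactor of factor X and not itself a protease, read 9.63, 9.84 and 9.52 on the naive arrays, 8.23, 8.84 and 7.79 at 1 week, 7.62, 8.35, 8.01 and 8.35 at 4 weeks and 8.48, 7.71 and 8.33 at 6 weeks. It did not overlap with naive and changed by -1.38, -1.58 and -1.49 (SE 0.26 to 0.28, adjusted p = 0.00292, 0.000518 and 0.000851), with the 6-week call lost when set-adjusted (-1.58, adjusted p = 0.0632).

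**Figure D3:**
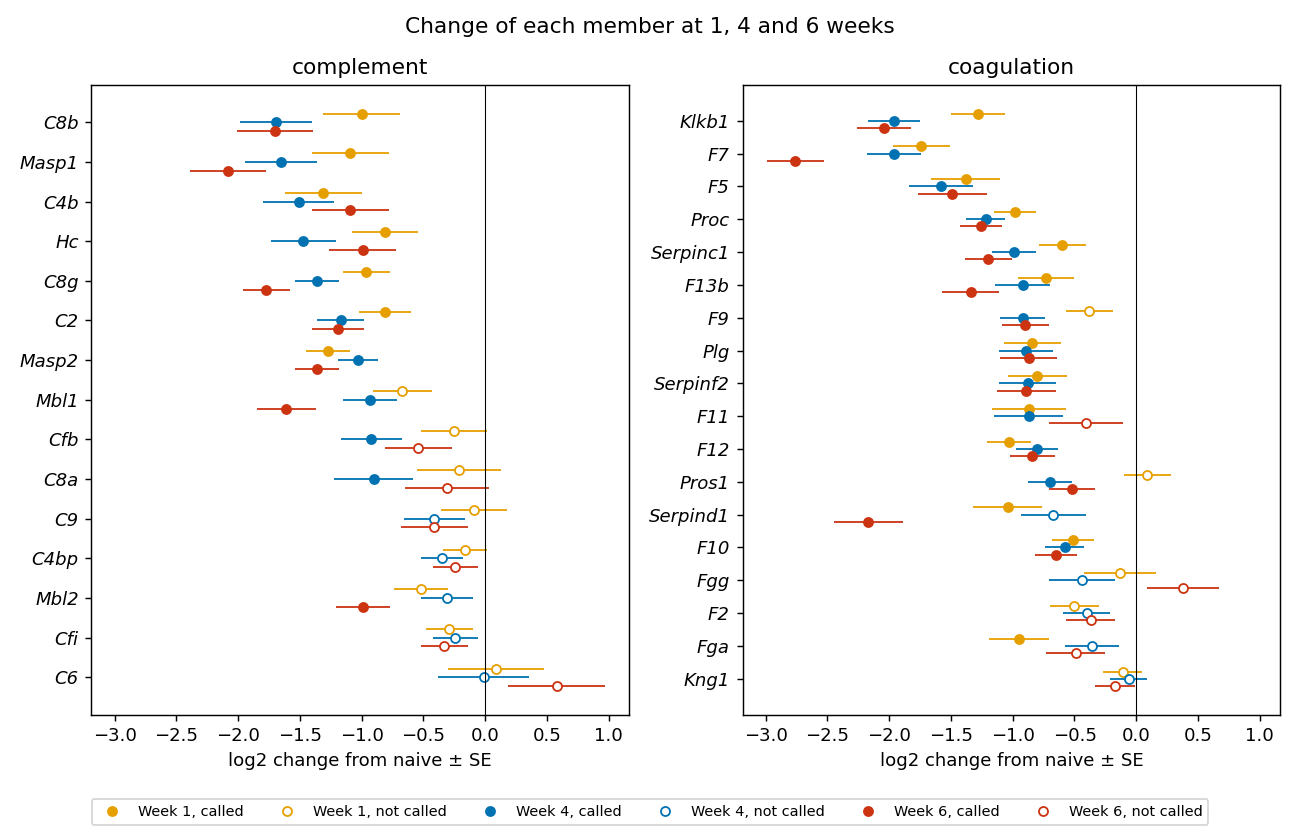
Log2 change from naive ± SE for each tested member at 1, 4 and 6 weeks, with complement in one panel and coagulation in the other, filled points called and open points not called. F7 at 6 weeks lies at -2.76, the lowest point, and the members at the foot of each panel lie around 0.

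The fibrin-forming genes stood apart from one another. Fga, the alpha chain of fibrinogen, read 14.53, 14.7 and 14.38 on the naive arrays, 13.13, 14.18 and 13.45 at 1 week, 13.95, 14.21, 14.25 and 14.27 at 4 weeks and 14.36, 13.92 and 13.85 at 6 weeks. It was lowest on 1-week arrays A and C. It fell at 1 week (-0.95, SE 0.24, adjusted p = 0.0102), and its changes of -0.36 and -0.49 later were not called. In a fit of the naive and 1-week arrays alone the 1-week call was lost (adjusted p = 0.0542). The second probe of Fga gave -0.93, -0.39 and -0.40. Fgg, the gamma chain, read 12.96, 13.41 and 13.64 on the naive arrays, 12.54, 13.53 and 13.55 at 1 week, 12.93, 13.25, 12.54 and 12.88 at 4 weeks and 14.08, 13.35 and 13.73 at 6 weeks. Its groups overlapped at all times, with changes of -0.13, -0.44 and 0.38 (SE 0.27 to 0.29, adjusted p = 0.772, 0.243 and 0.313). The 6-week change of Fgg was -0.61 when set-adjusted and -0.89 after median scaling, so its direction is not settled. F13b, the carrier chain of the enzyme that cross-links fibrin, read 11.53, 11.47 and 11.66 on the naive arrays, 11.33, 10.29 and 10.85 at 1 week, 10.29, 10.76, 10.69 and 10.8 at 4 weeks and 10.35, 10.17 and 10.11 at 6 weeks. All its TAA arrays lay below the naive ones, with 1-week array A the nearest. F13b changed by -0.73, -0.92 and -1.34 (SE 0.22 to 0.23, adjusted p = 0.0314, 0.00569 and 0.000465). Set-adjusted it changed by -0.22 at 1 week and -0.57 at 6 weeks, neither called, and its 1-week call was also lost without naive A, B or C or 1-week B or C (-0.77 to -0.46).

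Inhibitors of clotting also fell, 3 of 4 at 1 and 4 weeks, and 4 of 4 at 6 weeks (1, 3 and 2 when set-adjusted). Serpind1, heparin cofactor, an inhibitor of thrombin, read 10.93, 11.09 and 11.13 on the naive arrays, 10.17, 10.39 and 9.48 at 1 week, 10.03, 10.36, 10.3 and 10.85 at 4 weeks and 9.26, 9.04 and 8.36 at 6 weeks. Its 4-week arrays overlapped those of 1 week, and its 6-week arrays lay below all others. Its changes were -1.04 (SE 0.28, adjusted p = 0.0133), -0.67 (SE 0.26, adjusted p = 0.0664) and -2.17 (SE 0.28, adjusted p = 5.47e-05), 4.49-fold lower at 6 weeks. The 1-week call was lost without 1-week array C (-0.78, adjusted p = 0.0513) and when set-adjusted (-0.89, adjusted p = 0.15).

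Proc, protein C, a vitamin K dependent protease that destroys active factor V, read 12.36, 12.48 and 12.42 on the naive arrays, 11.25, 11.48 and 11.58 at 1 week, 11.3, 11.41, 10.94 and 11.18 at 4 weeks and 11.31, 11.09 and 11.09 at 6 weeks. Its TAA arrays lay well below naive with little spread. Proc changed by -0.98, -1.22 and -1.26 (SE 0.16 to 0.17, adjusted p = 0.000971, 8.53e-05 and 7.18e-05) and was called when set-adjusted. Pros1, protein S, its cofactor, read 9.57, 9.64 and 9.54 on the naive arrays, 9.97, 9.42 and 9.63 at 1 week, 9.11, 8.95, 8.68 and 8.77 at 4 weeks and 9.13, 8.74 and 9.3 at 6 weeks. It overlapped with naive at 1 week and lay below it later. Pros1 changed by 0.09 (not called), -0.70 (SE 0.18, adjusted p = 0.00996) and -0.52 (SE 0.19, adjusted p = 0.0444). The 6-week call was lost when set-adjusted (-0.08) and without any 1 of naive A, B or C, 4-week B or D and 6-week A or B (-0.56 to -0.37). Serpinc1, antithrombin, changed by -0.60, -0.99 and -1.20 (SE 0.18 to 0.19, adjusted p = 0.0298, 0.000889 and 0.00023). Its 1-week call was lost without naive B or C or 1-week C (-0.55 to -0.52), and set-adjusted it was called at 4 weeks alone. A second Serpinc1 probe gave 0.32, -0.59 and -0.49.

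In fibrinolysis, the precursor of the fibrin-cutting enzyme and the inhibitor of that enzyme fell by similar amounts. Plg, plasminogen, read 13.16, 13.85 and 13.73 on the naive arrays, 12.47, 13.16 and 12.59 at 1 week, 12.53, 12.83, 12.5 and 12.91 at 4 weeks and 12.95, 12.45 and 12.73 at 6 weeks, with 1-week array B level with the lowest naive array. Plg changed by -0.84, -0.89 and -0.87 (SE 0.22 to 0.23, adjusted p = 0.0172, 0.0077 and 0.00902), and Serpinf2, antiplasmin, by -0.80, -0.88 and -0.89 (SE 0.23 to 0.24, adjusted p = 0.0257, 0.00992 and 0.0102). Serpinf2 read 13.2, 13.31 and 13.26 on the naive arrays, 12.25, 13.11 and 12 at 1 week, 12.25, 12.58, 12.22 and 12.45 at 4 weeks and 12.63, 12.36 and 12.12 at 6 weeks. One array, 1-week B, stayed close to naive. The 1-week call was lost for Plg without naive B or C or 1-week A (-0.76 to -0.70) and for Serpinf2 without naive A, B or C or 1-week A or C (-0.83 to -0.58). At 6 weeks neither was called when set-adjusted (-1.28 and -1.20, adjusted p = 0.06 and 0.0883).

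Different probes of a gene did not always read alike. Plg had 3 probes detected on all arrays: beside the tested one, a second changed by 0.55, -0.50 and -0.06 and the third by -2.50, -0.80 and -3.90. On the third, 1-week arrays B and C read 7.66 and 6.39 and the 6-week arrays 5.73, 6.05 and 6.44, while no other array was below 8.39. The third probes of F12 and Masp2 were also lowest on these arrays and changed, F12 by -1.92, -0.91 and -2.62, and Masp2 by -2.58, -1.38 and -3.19, there detected on 9 arrays. These 3 of the 49 member probes that passed the filter were lower on every array of the second array set, with gaps of 0.73, 0.90 and 0.15, and so were 438 of all 11212 probes (3.91%). The second probes of F12 and Masp2 followed the tested ones. The part of the array set in these readings was not tested.

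**Figure D4:**
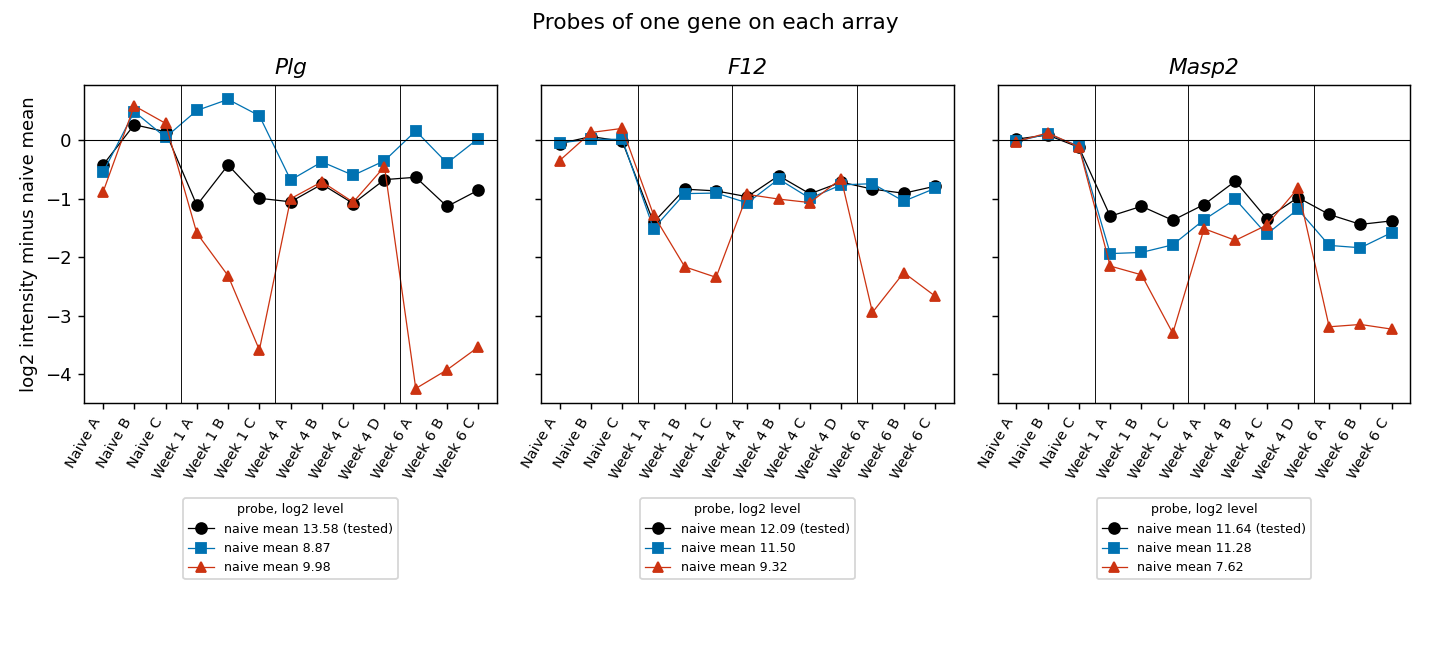
Log2 intensity minus the naive mean on each of 13 arrays for the 3 probes of Plg, F12 and Masp2, with the tested probe in black and the naive level of each probe in the key. The third probe (red triangles) drops further than the tested probe on 1-week arrays B and C and on the 6-week arrays.

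Set against each other, the medians of complement and coagulation lay close together. Median changes of the 15 complement genes were -0.67, -0.93 and -0.99, and those of the 18 coagulation genes -0.82, -0.88 and -0.88, at 1, 4 and 6 weeks. Complement minus coagulation was 0.16, -0.06 and -0.11. Taken on single arrays, the difference was 0.36, -0.08 and -0.07 at 1 week, -0.04, 0.06, -0.36 and -0.28 at 4 weeks and -0.14, -0.06 and -0.24 at 6 weeks. Arrays of 1 group thus lay on both sides of 0 at 1 and 4 weeks. Without 1-week array B the 1-week difference was 0.43, without 1-week array A it was -0.02, and set-adjusted the 6-week difference was 0.17. Within both families the spread between genes was wider than this difference, from -2.08 to 0.58 in complement and from -2.76 to 0.38 in coagulation at 6 weeks.

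**Figure D5:**
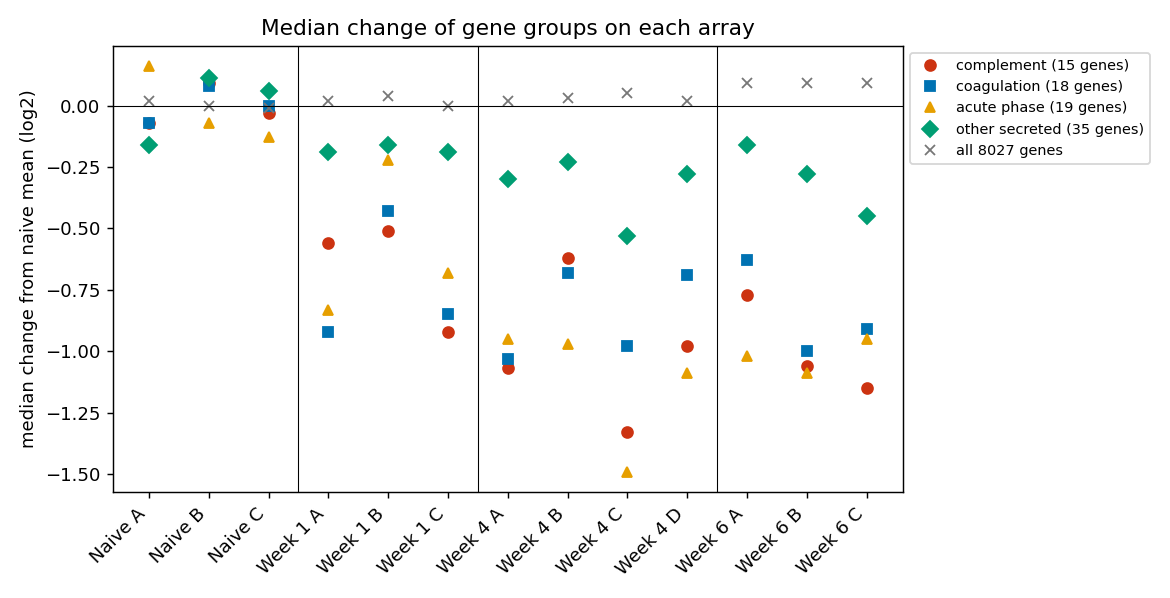
Median log2 change from the naive mean on each of 13 arrays for complement, coagulation, acute phase and other secreted hepatocyte proteins, and for all 8027 genes. Complement and coagulation lie between -0.43 and -1.33 on the TAA arrays, and other secreted proteins between -0.16 and -0.53.

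Few members differed between TAA times. At 4 weeks against 1 week, 1 member was called, Pros1 (-0.79, SE 0.18, adjusted p = 0.0171, and -0.73, adjusted p = 0.0518, without 4-week array C), beside 8.81% of all genes. At 6 weeks against 1 week 5 members were lower, beside 9.18% of all genes called in either direction and 313 of 8027 called lower: Serpind1 (-1.12, SE 0.28, adjusted p = 0.023), F7 (-1.02, SE 0.23, adjusted p = 0.016), Mbl1 (-0.95, SE 0.24, adjusted p = 0.0248), C8g (-0.81, SE 0.19, adjusted p = 0.0192) and Klkb1 (-0.76, SE 0.22, adjusted p = 0.0479). At 6 weeks against 4 weeks Serpind1 (-1.50, SE 0.26, adjusted p = 0.0048) and F7 (-0.80, SE 0.22, adjusted p = 0.0477) were lower, beside 5.31% of all genes called in either direction and 248 of 8027 called lower. Serpind1 at 6 weeks against 4 weeks was called in every fit that left out 1 array. At 6 weeks against 1 week the call was lost without 6-week A or C for F7 (-1.0), without 1-week A or 6-week C for Serpind1 (-1.04 to -0.86) and C8g (-0.78 to -0.60), and without 1-week A or 6-week A or C for Mbl1 (-0.91 to -0.71). It was lost for Klkb1 in 11 of 13 such fits (all but those without 4-week A or B, -0.87 to -0.67). For F7 at 6 weeks against 4 weeks it was lost in 8 of 13 (all but those without a 1-week array or 4-week A or C, -0.85 to -0.64). Set-adjusted, Pros1 against 1 week (-1.09) and F7 at 6 weeks against 1 week (-1.09) were called and the others were not, beside 1.67% and 5.29% of all genes. All 5 calls at 6 weeks against 1 week were lost with array weights, with only the 2 groups in the fit and after median shifting. Median shifting called 0 members at 4 weeks against 1 week, 0 at 6 weeks against 1 week and 24 at 6 weeks against 4 weeks, beside 11.7%, 0.0623% and 51.4% of all genes.

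Other genes of the same pathways came from lists that were chosen with earlier results of these data known. Their counts stand beside 12.3%, 12.9% and 16.4% of all 8027 genes called lower at 1, 4 and 6 weeks, and 1067, 1222 and 1800 genes called higher. Set-adjusted, 6.24%, 13.8% and 5.18% of all genes were called lower, and 647, 1315 and 518 genes higher. Of 19 further complement genes tested, 9, 8 and 10 fell at 1, 4 and 6 weeks and none was called higher, with median changes of -0.57, -0.50 and -0.81. Set-adjusted, 3, 8 and 5 fell and C1qa, a chain of the C1 recognition molecule, rose at 1 week (1.45, adjusted p = 0.015; 0.68 and not called otherwise). C1rl, a relative of the C1r protease, changed by -1.40, -1.58 and -2.11, C1s1, the protease of C1 that cuts C4, by -1.84, -0.81 (not called) and -2.02, and Cpn2, a subunit of the carboxypeptidase that inactivates the anaphylatoxins, by -1.43, -1.55 and -1.96. Cd59b, a membrane inhibitor of the pore, changed by -0.88, -1.33 and -1.92. Serping1, the inhibitor of C1 and of kallikrein, named here after its values were seen, changed by -0.93, -1.04 and -1.01. Of 20 further coagulation genes, 6, 5 and 7 fell and 4, 4 and 7 rose (medians -0.18, -0.18 and -0.06). Set-adjusted, 5, 5 and 3 fell and 2, 5 and 4 rose. Those that fell include Tfpi, the inhibitor of the tissue factor pathway (-1.90, -0.66 and -2.29, the 4-week change not called), Proz, protein Z (-1.19, -1.35 and -1.58), Hgfac (-1.44, -1.37 and -1.40) and Hrg, a plasma glycoprotein (-0.70, -1.21 and -1.10). Those that rose include Anxa2 (2.23, 2.48 and 2.75), which binds plasminogen on cell surfaces, and Anxa5 (1.11, 1.79 and 1.90), which binds phospholipid. Both were detected on all 13 arrays. Serpina5, the protein C inhibitor, was also called higher (0.45, not called, then 1.40 and 2.27), but was detected on only 7 arrays. Serpina5 may have passed the filter only through the groups where it read higher, so its calls are no independent sign of a rise.

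In the vitamin K cycle, 3, 2 and 2 of 6 genes fell and 1 rose at each time. Ggcx, the carboxylase that makes the vitamin K dependent modification, changed by -2.49, -1.30 and -2.15. Vkorc1, the reductase that recycles vitamin K, changed by -0.58, -0.55 and -0.84 and its relative Vkorc1l1 rose by 1.00, 0.98 and 1.28. Among 13 hepatocyte transcription factors 3, 2 and 2 fell and 0, 1 and 1 rose. Cebpa changed by -1.07, -0.76 and -1.68 (-1.03 and not called at 6 weeks when set-adjusted), and Rxra by -0.92, -0.80 and -0.98. Of 19 acute phase genes 5, 13 and 12 fell and 1, 1 and 2 rose, with medians of -0.60, -1.08 and -0.90. Saa1, an acute phase apolipoprotein with a near-identical relative, changed by -1.01 (not called), -2.32 and -2.23. Orm2, an orosomucoid, changed by -1.87, -1.87 and -2.14. Lbp, a carrier of bacterial lipid, changed by -1.06, -2.05 and -1.93, and Cd14, its receptor, rose by 1.15, 1.15 and 1.72. Of 35 other secreted hepatocyte proteins 12, 14 and 13 fell and 2, 2 and 1 rose, with medians of -0.15, -0.33 and -0.32. In signalling by interleukin 6 and interleukin 1, 3, 2 and 2 of 13 genes fell and 2, 0 and 3 rose. In the secretory pathway 4, 3 and 5 of 18 genes fell and 2, 1 and 1 rose. Of all 8027 genes, 12.3%, 12.9% and 16.4% were called lower at 1, 4 and 6 weeks, and 1067, 1222 and 1800 genes higher. The small counts of transcription factors, interleukin signalling and the secretory pathway are therefore not read as results about these lists. Set-adjusted, 4, 13 and 4 acute phase genes and 7, 13 and 6 other secreted proteins fell at 1, 4 and 6 weeks, and 0, 1 and 1 and 1, 2 and 0 rose. In the same fit 2, 2 and 1 vitamin K cycle genes, 2, 4 and 1 transcription factors, 1, 2 and 2 interleukin signalling genes and 2, 3 and 3 secretory pathway genes fell, beside 6.24%, 13.8% and 5.18% of all genes called lower. Of the genes named from these lists, the calls lost in that fit were those of C1s1, Cd59b, Vkorc1, Cebpa and Cd14 at 1 week and of C1s1, Tfpi, Ggcx, Cebpa and Saa1 at 6 weeks.

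Of 8 hepatocyte markers with a probe, 7 were detected on all arrays. At 1, 4 and 6 weeks 0, 1 and 2 of the 8 were called lower, beside 12.3%, 12.9% and 16.4% of all genes. Single markers changed by -0.20 to 0.32, -1.63 to -0.06 and -1.24 to 0.28. Their summed level was 16.63 to 16.74 log2 units on naive arrays, 16.69 to 16.81 at 1 week, 16.40 to 16.59 at 4 weeks and 16.61 to 16.78 at 6 weeks. Levels were summed on the linear scale, so the brightest probes weigh most and a fall of a dimmer marker hardly shows. Summed levels of bile duct and of stellate cell markers lay above naive on all 4-week and 6-week arrays. Counts called higher below stand beside 1067, 1222 and 1800 of all 8027 genes at 1, 4 and 6 weeks (647, 1315 and 518 when set-adjusted). The summed level of 6 bile duct markers lay at 7.50 to 7.61 on naive arrays, then at 7.56 to 8.67, 8.77 to 10.02 and 9.74 to 10.16, with 1, 2 and 4 of 6 called higher (0, 2 and 2 when set-adjusted). Of these 6, 0 were detected on all 13 arrays. They may have passed the filter only through the groups where they read higher, so these calls are no independent sign of a rise. For 10 stellate cell and myofibroblast markers the summed level was 12.47 to 12.60, then 12.94 to 13.27, 12.87 to 13.43 and 12.93 to 13.24, with 2, 4 and 6 of 8 tested called higher (2, 4 and 3 when set-adjusted) and Lrat detected on no array. Of these 10, 4 were detected on all 13 arrays, so the same limit holds for the others. The 8 macrophage markers lay at 11.38 to 11.49, 11.67 to 12.34, 11.46 to 11.99 and 10.60 to 11.70 (Cd5l and Itgam not detected), where 0, 1 and 0 of 6 tested were called higher and 0, 0 and 1 lower. The 9 endothelial markers lay at 12.09 to 12.28, 11.88 to 12.38, 11.98 to 12.41 and 11.64 to 12.07 (Kdr not detected), where 1, 0 and 1 of 8 tested were called higher and 1, 1 and 3 lower. Lymphocyte markers ran from 7.82 to 8.37 on naive arrays, which spans the other groups, with 5 of 9 not detected, and platelet markers from 7.21 to 7.73 over all arrays, with 3 of 6 not detected. The part of these cells in the falls of the members was not tested.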

How the data were processed

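Total liver RNA of 13 samples was hybridised to single-colour Illumina MouseRef-8 BeadArrays. The raw table deposited by the authors holds, per the file headers, mean bead intensity per probe, with neither normalization nor background subtraction, and a detection p-value, also deposited by the authors. Per the submitters' processing notes, GenomeStudio was used, in a version not given in the sources used. The authors' deposited value table holds log2 values centred on each probe, with column medians from -0.00176 to 0.00134. Its normalization and centring are not stated. Its group differences followed those of the raw table (r = 0.998, slope 0.909), so its scale was read as log2 and higher as brighter.

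Columns of the raw table were assigned by the group in their headings. Intensities were corrected and quantile normalized with neqc (limma 3.58.1, R 4.3.3, offset 16). The filter kept probes whose detection p-value was below 0.01 on 3 arrays or more, with 1 probe per gene, the one with the highest mean, and 1 limma model was fitted to all 13 arrays. P-values are two-sided and adjusted by Benjamini and Hochberg over 8027 genes. Of 25697 probes, 23978 had 1 symbol, 1719 none and 0 several. For arrays, the number of samples limits the precision. The test was checked on simulated data with independent noise. These held no array sets and no dim arrays, so the check does not cover effects of arrays.

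Members and gene lists were chosen with earlier results of these data known. Values on every array are given for the called members with the largest changes, up to 6 per comparison with naive, and for both ends of each role. Of other lists, genes were named from the 3 lowest and the 3 highest called in a comparison with naive, with C1qa and Serping1 named after their values were seen. Alternatives changed the background correction, scaling, filter, choice of probe, model and samples.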

Additional observations from a re-analysis of the deposited data

Results flagged for a closer look

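Mbl1 at 4 weeks had 1 array apart from the rest of its group: 4-week array B read 10.84 where the other 3 read 10.36 to 10.40, a gap of 0.907 of the group's range. Of 33 members examined at 4 weeks, 1 stood out this way, and chance flags about 1 in 20 groups.

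Members whose change from naive differed between TAA times by the limma contrast of the 2 times were Pros1 (-0.79, 4 weeks minus 1 week), and, at 6 weeks minus 1 week, C8g (-0.81), F7 (-1.02), Klkb1 (-0.76), Mbl1 (-0.95) and Serpind1 (-1.12). At 6 weeks minus 4 weeks they were F7 (-0.80) and Serpind1 (-1.50). Set-adjusted, Pros1 and F7 at 6 weeks against 1 week were still called.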

How the results depend on the processing

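Every call of F7 and Klkb1 against naive was kept under all 23 alternatives, with changes from -3.73 to -1.32 and from -3.26 to -1.12. The same held for C8g (-3.24 to -0.89) and Proc (-2.69 to -0.89). Counts of members called moved as follows. With the array set in the model they were 10 at 1 week (20 in the main analysis), 9 at 6 weeks (22), 1 at 6 against 1 week (5) and 0 at 6 against 4 weeks (2), where limma called 0 of all genes and 4 members had an unadjusted p under 0.05. With only the 2 groups compared they were 12 at 1 week, 0 at 6 against 1 week (9 unadjusted) and 4 at 6 against 4 weeks. Of all 8027 genes, 1099, 169 and 762 were called in those fits. With array weights 13, 0 (11 unadjusted) and 4 members were called, beside 1548, 209 and 868 of all 8027 genes. Median shifting gave 7 at 4 weeks (23 in the main analysis), 0 at 4 against 1 week (6 unadjusted), 0 at 6 against 1 week (9 unadjusted) and 24 at 6 against 4 weeks, where the median of all genes moved to -0.94. Of all genes called, 92.2%, 27.6% and 93.4% were then lower at 1, 4 and 6 weeks, against 48%, 45.9% and 42.3% in the main analysis. At 4 against 1 week the count (1) was 3 without background correction, 2 with probes detected on all arrays, 4 with the mean of all probes and 3 in the value table. In these fits 817 of 8027, 642 of 5598, 760 of 8027 and 798 of 8027 genes were called. At 6 against 1 week the member count was 3 without the detection filter and 8 with probes detected on all arrays. All genes called there were 533 of 16593 and 587 of 5598. At 6 against 4 weeks the member count was 1 without the filter and 5 with the mean of all probes. All genes called there were 351 of 16593 and 586 of 8027. Leaving out 1 array gave 11 to 20 members at 1 week, 20 to 24 at 4 weeks, 20 to 23 at 6 weeks, 0 to 2 at 4 against 1 week, 0 to 8 at 6 against 1 week and 1 to 4 at 6 against 4 weeks. The shares of all genes called in those fits are not given here. Complement minus coagulation ran from -0.02 to 0.43 at 1 week, and was 0.17 at 6 weeks with the set in the model. The causes were not tested.

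Reversed signs were found for changes that were not called and for Pros1 at 4 against 1 week after median shifting (0.13). With the set in the model C4bp was 0.03 and 0.05 at 1 and 6 weeks, C9 0.38 and 0.28, and Fgg -0.61 at 6 weeks. Median shifting gave C6 -0.48, 0.26 and -0.35 at 1, 4 and 6 weeks, Fgg -0.89 at 6 weeks and Pros1 -0.69 at 1 week, and the mean of all probes gave C6 -0.22 and 0.19 at 1 and 4 weeks. Without 1 array C6 ran from -0.12 to 0.39, -0.15 to 0.11 and -0.01 to 0.91, and at 1 week C8a from -0.59 to 0.15, C9 from -0.32 to 0.19, Fgg from -0.32 to 0.20 and Pros1 from -0.06 to 0.22.

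Replicate numbers stand only in the value table's labels. Deviations of 18 same-numbered pairs correlated from -0.339 to 0.237, with 2 over 0.1, so no pairing by number was seen. With 3 or 4 samples per group, such correlations cannot exclude one. With the replicate block 1 member was called at 6 against 4 weeks, C6 at 4 weeks was 0.06, and calls over all genes at 6 against 4 weeks went from 451 to 102.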
